A study of Mus musculus with 2 samples.

Results

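The genes described here are 9 interferon-stimulated genes, Isg15, Ifit1, Ifit2, Ifit3, Irf7, Stat2, Ifi202b, Slfn4 and Oasl2, named by symbol among the 32285 genes counted in each library. All 9 symbols were found. They were followed in single nuclei of interscapular brown adipose tissue (BAT), the heat-producing fat between the shoulder blades, from 8-week-old mice. The WT library came from mice with floxed Srsf1 alleles and no Cre (Srsf1 flox/flox), and the KO library from littermates that also carried Adipoq-Cre, a transgene that drives Cre from the promoter of the adiponectin gene and so acts in adipocytes. All mice were males, and both groups carried the floxed alleles. Each genotype was 1 library, and how many mice were pooled in it was not stated. No difference between the genotypes could therefore be tested against the spread between mice, and every interval covers counting error only.

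Type I interferons bind a receptor on nearly every cell, and the kinases behind it activate STAT2, which acts with IRF9 in the nucleus. Together they switch on many genes through a short repeated DNA element, the interferon-stimulated response element, and their products block viruses at many steps. Macrophages, which sit throughout adipose tissue, are among the cells that respond most strongly, and most tissues keep a low basal level of these transcripts without infection. Of the genes followed here, Stat2 and Irf7 carry or amplify the signal, Isg15, Ifit1, Ifit2, Ifit3 and Oasl2 are effectors, Slfn4 is a Schlafen gene of myeloid cells, and Ifi202b belongs to the Ifi200 family of interferon-induced nuclear proteins.

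The 250 bases before the RefSeq start of 4 of the genes hold the response element in its short form, GAAANNGAAA or its reverse complement TTTCNNTTTC, and are shown with each match in capitals. The windows of Slfn4 and Ifi202b, the genes with the largest KO to WT differences in macrophage nuclei, hold no match and are shown for comparison. All were taken from the RefSeq promoter table on GRCm38.p6, 5′ to 3′ on the strand of the gene: Isg15 at chr4:156200819-156201068 on the minus strand, Ifit1 at chr19:34640639-34640888 and Ifit3 at chr19:34583279-34583528 on the plus strand, Stat2 at chr10:128270248-128270497 on the plus strand, Slfn4 at chr11:83174936-83175185 on the plus strand and Ifi202b at chr1:173982845-173983094 on the minus strand.
Isg15: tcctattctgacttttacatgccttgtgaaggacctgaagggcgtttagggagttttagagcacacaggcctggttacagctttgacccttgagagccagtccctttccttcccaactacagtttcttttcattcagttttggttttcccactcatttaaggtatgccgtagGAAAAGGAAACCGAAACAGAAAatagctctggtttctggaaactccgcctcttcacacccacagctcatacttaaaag
Ifit1: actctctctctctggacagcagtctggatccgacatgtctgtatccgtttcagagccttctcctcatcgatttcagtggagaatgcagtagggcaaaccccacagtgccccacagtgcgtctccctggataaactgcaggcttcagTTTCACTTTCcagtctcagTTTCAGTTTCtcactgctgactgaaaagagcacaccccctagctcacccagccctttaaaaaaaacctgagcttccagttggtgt
Ifit3: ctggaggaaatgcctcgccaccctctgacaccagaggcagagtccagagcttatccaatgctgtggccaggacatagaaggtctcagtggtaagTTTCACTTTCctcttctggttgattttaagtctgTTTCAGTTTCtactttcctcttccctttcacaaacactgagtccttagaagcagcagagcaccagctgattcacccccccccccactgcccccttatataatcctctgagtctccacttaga
Stat2: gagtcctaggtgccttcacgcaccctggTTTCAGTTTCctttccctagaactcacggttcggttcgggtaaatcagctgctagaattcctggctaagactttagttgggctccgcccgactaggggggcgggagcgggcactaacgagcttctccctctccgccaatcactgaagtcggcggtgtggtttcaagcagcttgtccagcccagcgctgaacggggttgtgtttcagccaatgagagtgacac
Slfn4: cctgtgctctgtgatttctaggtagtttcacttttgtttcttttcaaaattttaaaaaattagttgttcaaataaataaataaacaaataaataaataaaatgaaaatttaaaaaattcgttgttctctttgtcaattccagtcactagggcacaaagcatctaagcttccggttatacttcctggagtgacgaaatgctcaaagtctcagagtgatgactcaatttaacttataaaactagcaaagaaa
Ifi202b: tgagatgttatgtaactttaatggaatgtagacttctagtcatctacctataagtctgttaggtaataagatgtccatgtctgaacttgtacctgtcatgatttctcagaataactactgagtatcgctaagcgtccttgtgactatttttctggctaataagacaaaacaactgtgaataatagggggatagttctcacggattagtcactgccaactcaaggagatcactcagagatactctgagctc

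In Isg15 the element occurred as 3 overlapping copies on the printed strand, between 78 and 57 bases before the start. Ifit1 had 2 separate copies on the other strand, the nearer ending 76 bases before the start, and Ifit3 had 2 on the other strand, the nearer ending 113 bases before it. Stat2 had 1 copy, which began 222 bases before the start. Searched on both strands, the element was present in 978 of 32851 promoter windows of the same length in the RefSeq table (2.98%). Irf7, Oasl2 and the 2 windows listed for Ifit2 held no match to these letters. Genes with the element and genes without it were both among those that were lower in KO macrophage nuclei.

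By the gene annotation used here, Ifit2, Ifit3 and Ifit1 lie near each other on chromosome 19, within positions 34550694 to 34650009, and the other 6 genes lie on 6 different chromosomes. Of the 9, Irf7 alone overlaps another counted gene, sharing 45 bases with Phrf1 on the opposite strand. The count of Ifit3 is uncertain, since 61.8% of the 31-base words of its transcripts are shared with its near copy Ifit3b. Slfn4 shares 20.1% of its words with other genes, most of them with Slfn3, and Isg15 and Ifit1 share 12.8% and 10.5%. For Stat2, Ifi202b and Oasl2 the share is at most 1.85%, and for Ifit2 and Irf7 it is 0.

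Nuclei were assigned to classes by the sum of their UMIs (unique molecular identifiers, each standing for 1 captured transcript) over lists of marker genes, and levels are the UMIs of a gene scaled to 1000000 UMIs in all (CPM) summed over all nuclei of a class and library. Of 12771 WT and 11378 KO nuclei, 596 and 1962 were called macrophage, 2738 and 1115 endothelial, 583 and 1929 precursor, the fibroblast-like cells from which adipocytes form, and 3731 and 2371 adipocyte. Each class held all 12 of its own markers at higher levels than the other nuclei did, in both libraries. The same markers made the calls, so this could not test them. Median depth per nucleus was similar between the libraries in macrophage (4446 and 4052 UMIs) and endothelial nuclei (2244 and 2163), whereas precursor nuclei had 3854 and 4855 UMIs and adipocyte nuclei 7252 and 6539. The median share of mitochondrially encoded UMIs per barcode was 1.10% in WT against 0.0491% in KO. Adipocyte markers summed to 6259 CPM in WT and 1506 CPM in KO macrophage nuclei, with all 12 detected, and their part in the macrophage results was not tested. Srsf1, the targeted gene, was at 185.6 CPM in WT and 59.6 CPM in KO adipocyte nuclei, a log2 ratio of -1.64 (interval -1.73 to -1.55). It was also lower in KO macrophage nuclei, at 117.0 and 66.6 CPM. The deleted exons are not given in the sources used here, so these counts check only the direction of the labels. The libraries shared 52 barcode sequences.

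In macrophage nuclei most of the interferon-stimulated genes were lower in KO. Slfn4, Ifi202b, Isg15, Irf7, Ifit2 and Ifit3, 6 of the 9 genes, were at least 2-fold lower in KO, and none was 2-fold higher. Ifit1 was 1.65-fold lower, and Stat2 and Oasl2 had intervals that held 0. Over all 13825 genes with at least 20 UMIs in these nuclei, 18.4% were 2-fold lower and 7.45% were 2-fold higher. The median log2 ratio of KO to WT was -1.28 over the 9 genes and -0.03 over all genes. The 9 genes were chosen with earlier results of these data known. Here and in the other classes, their comparison with all genes therefore only describes them.

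Slfn4 and Ifi202b showed the widest gaps. Slfn4 had 181 UMIs in WT and 63 in KO macrophage nuclei, or 49.9 CPM (95% exact Poisson interval 42.9 to 57.8) against 6.33 CPM (4.87 to 8.10), 7.89-fold lower in KO with a log2 ratio of -2.98 (interval -3.42 to -2.56). Ifi202b had 144 and 45 UMIs, or 39.7 CPM (33.5 to 46.8) against 4.52 CPM (3.30 to 6.05), 8.78-fold lower in KO with a log2 ratio of -3.14 (-3.65 to -2.64). Neither pair of intervals overlapped. The UMIs were clustered in part, however. In WT, 109 of the 181 UMIs of Slfn4 lay in 21 nuclei and 79 of the 144 of Ifi202b in 19 nuclei, each with 3 or more. In macrophage nuclei, 13.3% (WT) and 2.45% (KO) carried a Slfn4 UMI, against 0.686% and 0.467% of precursor nuclei (medians of 3854 and 4855 UMIs per nucleus). For Ifi202b the shares were 11.6% and 2.09% of macrophage nuclei, against 0.515% and 0.207% of precursor nuclei. The KO shares in macrophage nuclei were thus still above those of precursor nuclei for both genes.

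Irf7, the transcription factor that raises interferon production once a first signal has arrived, had 49 UMIs in each library, which was 13.5 CPM (10.0 to 17.9) in WT and 4.92 CPM (3.64 to 6.51) in KO macrophage nuclei, a log2 ratio of -1.46 (-2.06 to -0.86). Isg15, a ubiquitin-like protein that is joined to other proteins, had 23 and 17 UMIs, or 6.35 CPM (4.02 to 9.52) against 1.71 CPM (0.995 to 2.74). Its log2 ratio was -1.89 (-2.89 to -0.93). Both genes were lower in KO by more than counting error.

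The Ifit genes encode proteins that bind viral RNA and stop its translation. Ifit2 had 54 UMIs in WT and 61 in KO macrophage nuclei, or 14.9 CPM (11.2 to 19.4) against 6.13 CPM (4.69 to 7.88), with a log2 ratio of -1.28 (-1.83 to -0.73). Ifit3 had 30 and 36 UMIs, or 8.28 CPM (5.58 to 11.8) against 3.62 CPM (2.53 to 5.01), with a log2 ratio of -1.19 (-1.93 to -0.44). Ifit1 had 30 and 50 UMIs, or 8.28 CPM against 5.03 CPM (3.73 to 6.63), and its interval, -1.40 to -0.02 around -0.72, came close to 0. Of the 54 WT UMIs of Ifit2, 27 lay in a single nucleus. With the nucleus holding most UMIs left out of each library, a step added after the data were seen, the log2 ratio of Ifit2 was -0.46, short of 2-fold.

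Stat2 and Oasl2 were close between the libraries over all macrophage nuclei. Stat2, the signal carrier that is itself induced, had 351 and 898 UMIs, or 96.8 CPM (87.0 to 107.5) against 90.3 CPM (84.4 to 96.4), and the interval of its log2 ratio, -0.28 to 0.08, held 0. Oasl2, a relative of the oligoadenylate synthetases that respond to double-stranded RNA, had 199 and 597 UMIs, or 54.9 CPM (47.5 to 63.1) against 60.0 CPM (55.3 to 65.0), with an interval of -0.11 to 0.37. Without nuclei marked for a second class, which left 19 WT and 546 KO nuclei, the log2 ratio was -0.71 for Stat2 and -1.58 for Oasl2, and the 3 genes past 2-fold were Ifit1, Slfn4 and Oasl2. The plot of levels by class shows these 2 genes nearly level between the macrophage bars, while Slfn4 and Ifi202b drop.

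**Figure D1:**
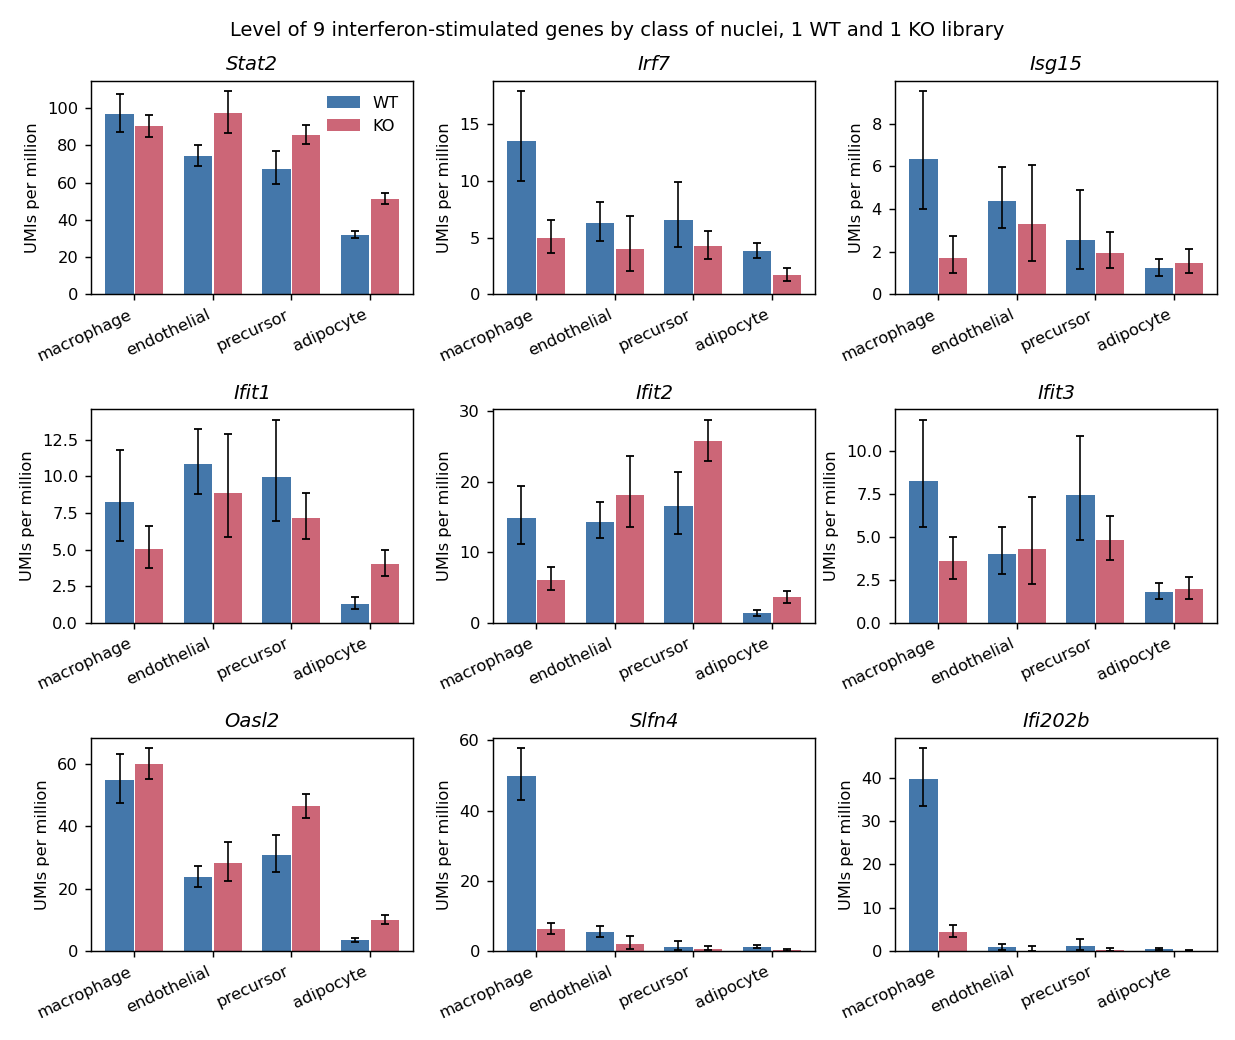
Level of each of the 9 genes (vertical axes, CPM; scales differ) in macrophage, endothelial, precursor and adipocyte nuclei of the WT and KO libraries; bars are 1 library each and error bars are 95% exact Poisson intervals, which cover counting error only. Slfn4 is at 49.9 in WT and 6.33 in KO macrophage nuclei, whereas Oasl2 is at 54.9 and 60.0.

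The UMIs of the classical effectors were unevenly spread over macrophage nuclei. At least 1 UMI of Isg15, Ifit1, Ifit2 or Ifit3, a group of 4 chosen after their values were seen, was present in 54 of 596 WT and 110 of 1962 KO macrophage nuclei. At least 2 of the 4 genes were present in 13 WT nuclei (2.18%, 95% exact binomial interval 1.17 to 3.70) and in 20 KO nuclei (1.02%, 0.624 to 1.57). Those 13 WT nuclei held 93 of the 137 UMIs of the 4 genes (67.9%), and a single nucleus held 28. In KO the 20 nuclei held 58 of 164 UMIs (35.4%). The summed level of the 4 genes was 37.8 CPM in WT and 16.5 CPM in KO macrophage nuclei, and 12.5 CPM and 10.9 CPM once these nuclei were left out. These nuclei were picked by the counts of the same genes, so leaving them out must lower the level, and these values only describe where the UMIs lay. UMIs that cluster in a few nuclei are not independent, so the intervals above are too narrow for these genes, and for Slfn4 and Ifi202b as well.

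The same few WT macrophage nuclei were high in other genes of the response, which were not used to pick them. Slfn4 was at 527.0 CPM in the 13 nuclei, with 51 UMIs in 9 of them, and at 35.7 CPM in WT macrophage nuclei with none of the 4 genes. Irf7 was at 93.0 CPM with 9 UMIs, against 8.93 CPM. The 37 counted genes of a list of other induced antiviral genes summed to 10406 CPM, against 2352 CPM in nuclei with none. Ifi202b did not follow them, with 2 UMIs (20.7 CPM) in the 13 nuclei and 38.3 CPM in nuclei with none. The nuclei with several genes were deeper, with a median of 6462 UMIs against 4168.
In the 20 KO macrophage nuclei, Slfn4 had 5 UMIs and Irf7 had 1, while the other antiviral genes summed to 8146 CPM against 2824 CPM in KO nuclei with none. Among nuclei with none of the 4 genes, Slfn4 was 35.7 CPM in WT and 5.74 CPM in KO, and Ifi202b was 38.3 CPM and 4.30 CPM. Both were thus lower in KO also among nuclei with none of the 4 effectors.

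**Figure D2:**
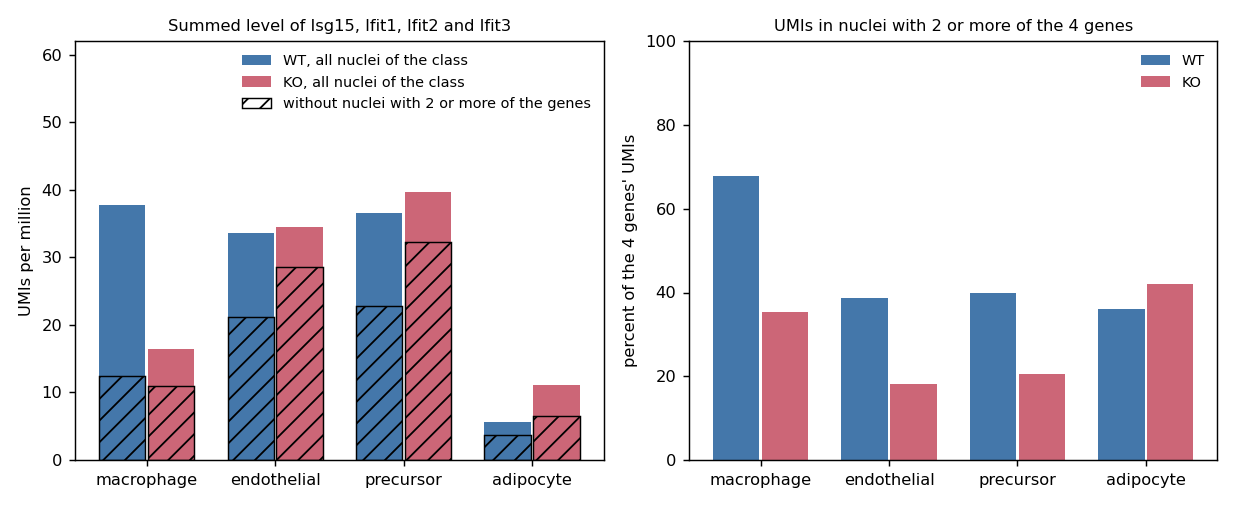
Left, summed level of Isg15, Ifit1, Ifit2 and Ifit3 (CPM) in each class of the WT and KO libraries, with hatched bars for the same classes after nuclei with 2 or more of the 4 genes were left out; right, percent of the 4 genes' UMIs that lay in those nuclei. In WT macrophage nuclei 67.9% of the UMIs lay in 13 nuclei, and the level falls from 37.8 to 12.5 without them.

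Nuclei with several effectors were found in every class. They made up 33 of 2738 WT and 6 of 1115 KO endothelial nuclei, 8 of 583 and 29 of 1929 precursor nuclei, and 10 of 3731 and 23 of 2371 adipocyte nuclei (0.268% and 0.970%). They held from 18.1% to 42.0% of the 4 genes' UMIs in these 3 classes. In each class and library the other induced antiviral genes were higher in them than in nuclei with none of the 4, for example 3238 CPM against 724 CPM in KO adipocyte nuclei and 4370 CPM against 1495 CPM in WT endothelial nuclei. The nuclei with several effectors were also deeper in each class and library. Their median was 15372 UMIs against 7215 in WT adipocyte, 12896 against 3431.5 in WT precursor and 2984 against 2211 in WT endothelial nuclei. The part of depth and of doublets was not tested.

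To see whether one kind of macrophage carried the differences, macrophage nuclei were divided by markers of tissue-resident macrophages (Lyve1, Cd163, F13a1, Folr2 and Timd4) and of lipid-associated macrophages (Atp6v0d2, Mmp12, Gpnmb, Trem2, Cd9 and Spp1), with limits chosen after the data were seen. The resident-marked range held 405 nuclei in WT and 1130 in KO, the lipid-associated-marked range 38 and 342, and 153 and 490 fell in neither. These are ranges of marker counts and not separate cell types, and in 78 WT and 176 KO nuclei the resident sum was within 1 UMI of the ratio that set the limit. Cd163 and F13a1 were also among the markers that called macrophage nuclei. Slfn4 was lower in KO in all 3, at 44.9 against 6.73 CPM, 62.2 against 5.74 CPM, and 74.3 against 5.80 CPM. Ifi202b lay mainly in resident-marked nuclei, at 47.4 CPM in WT (137 UMIs) and 7.25 CPM in KO (42 UMIs), and had 1 UMI in WT and 0 of 2088837 UMIs in KO lipid-associated-marked nuclei. Irf7 was 13.5 against 7.42 CPM in resident-marked nuclei (log2 ratio -0.86, -1.52 to -0.20), and had 3 and 3 UMIs in lipid-associated-marked nuclei (-2.93, -5.83 to -0.03) and 7 and 3 UMIs in the others (-3.40, -5.98 to -1.27). Stat2 was 135.3 against 68.9 CPM in lipid-associated-marked nuclei (log2 ratio -0.97, with an interval that ended at -0.41), and its intervals held 0 in the other ranges. Oasl2 differed in direction between the ranges: 52.9 against 71.7 CPM in resident-marked nuclei (log2 ratio 0.44, 0.17 to 0.72) and 84.1 against 40.2 CPM in lipid-associated-marked nuclei (-1.06, -1.74 to -0.33), the second from 23 and 84 UMIs. The differences between ranges were not tested.

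**Figure D3:**
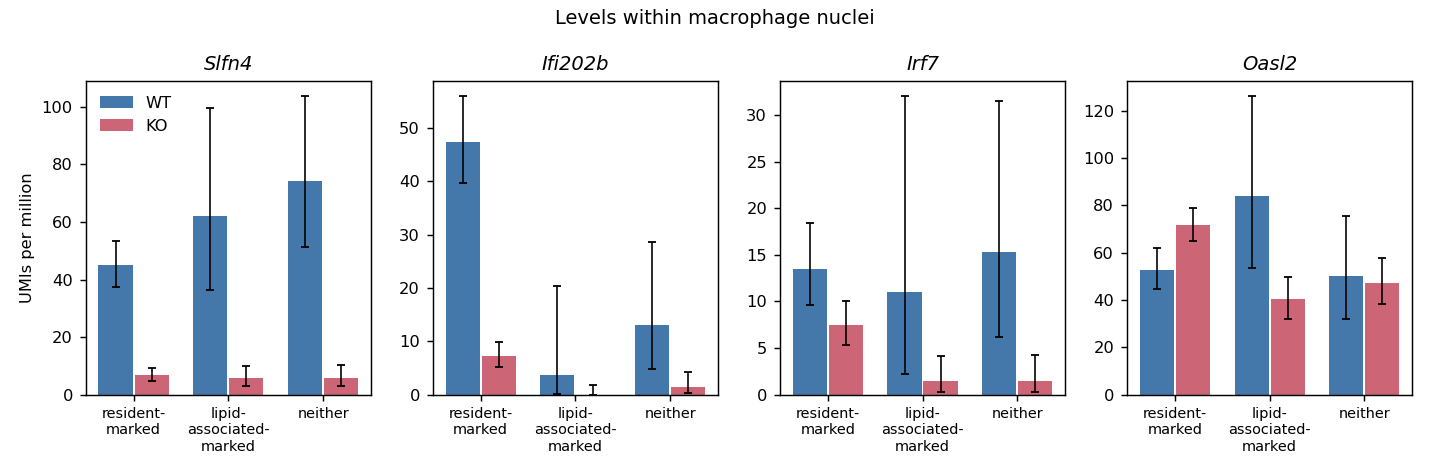
Level of Slfn4, Ifi202b, Irf7 and Oasl2 (CPM; scales differ) in resident-marked, lipid-associated-marked and other macrophage nuclei of the WT and KO libraries, with 95% exact Poisson intervals for counting error. Slfn4 is lower in KO in all 3 ranges, and Ifi202b is highest in WT resident-marked nuclei at 47.4.

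In adipocyte nuclei, the class in which Adipoq-Cre acts, the pattern was different, with some effectors higher in KO and Irf7 and Slfn4 lower. Ifit1, Ifit2 and Oasl2 were at least 2-fold higher in KO and Irf7 and Slfn4 at least 2-fold lower, out of 8 genes with at least 20 UMIs. Among all 17263 genes compared in adipocyte nuclei, 25.6% were 2-fold higher and 17% were 2-fold lower, so changes of this size were common in this class. The median log2 ratio was 0.48 over the 8 genes and 0.17 over all genes.

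Ifit1 had 46 UMIs in WT and 82 in KO adipocyte nuclei, or 1.30 CPM (0.952 to 1.73) against 4.03 CPM (3.21 to 5.01), with a log2 ratio of 1.63 (1.09 to 2.19). Ifit2 had 47 and 74 UMIs, or 1.33 CPM (0.976 to 1.77) against 3.64 CPM (2.86 to 4.57), with a log2 ratio of 1.45 (0.91 to 2.01). Oasl2 had 129 and 204 UMIs, or 3.65 CPM (3.05 to 4.33) against 10.0 CPM (8.70 to 11.5), with a log2 ratio of 1.46 (1.13 to 1.79). All 3 pairs of intervals were apart. Of the 82 KO UMIs of Ifit1, however, 35 lay in 6 nuclei, so its interval is too narrow here too. Stat2 was 32.1 CPM (30.3 to 34.0) in WT and 51.5 CPM (48.4 to 54.7) in KO, higher by 0.68 on the log2 scale (0.56 to 0.80), which was short of 2-fold. Isg15 (43 and 30 UMIs) and Ifit3 (64 and 40 UMIs) had log2 ratios of 0.28 (-0.44 to 0.99) and 0.12 (-0.49 to 0.71). Both intervals held 0, so no difference was resolved for these 2 effectors.

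Irf7 went the other way in adipocyte nuclei, with 135 UMIs in WT and 34 in KO, or 3.82 CPM (3.20 to 4.52) against 1.67 CPM (1.16 to 2.34), a log2 ratio of -1.19 (-1.78 to -0.64). Slfn4 had 48 and 5 UMIs, or 1.36 CPM against 0.246 CPM. Ifi202b had 16 UMIs in WT and 1 in KO, under the minimum for a ratio.

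Macrophage RNA moved with genotype in the adipocyte nuclei: the 12 macrophage markers, all of them detected, summed to 205.0 CPM in WT and 559.0 CPM in KO adipocyte nuclei, 2.79% and 5.80% of their level in macrophage nuclei of the same library. Slfn4 in adipocyte nuclei stood at 2.72% of its macrophage level in WT and 3.88% in KO, below the share of the marker list in both libraries, and the part of macrophage RNA in its adipocyte counts was not tested. Ifi202b, at 1.14% and 1.09%, was below it as well. In KO, Ifit1 stood at 80.2% and Ifit2 at 59.4% of their macrophage level, above every single macrophage marker, which ranged from 3.16% to 16.9%. In WT they stood at 15.7% and 8.92%, above the list but within the range of single markers, 1.05% to 60.1%. Oasl2 stood at 6.64% in WT and 16.7% in KO, above the list and within the range of single markers in both libraries. Markers of other classes moved as well. In adipocyte nuclei precursor markers summed to 210.9 CPM in WT and 512.6 CPM in KO, and endothelial markers to 412.1 and 163.3 CPM. Ifit2 was at 25.7 CPM in KO precursor nuclei, against 6.13 CPM in KO macrophage nuclei. The part of RNA from these classes in the adipocyte counts was not tested. When adipocyte nuclei with at least 3 UMIs from at least 2 markers of another of the 4 classes were left out, 2233 WT and 1271 KO nuclei were left, in which the macrophage markers summed to 119.7 and 140.0 CPM. In these nuclei Ifit1 had 13 and 35 UMIs with a log2 ratio of 2.49 (1.53 to 3.53), Ifit2 had 12 and 26 UMIs with 2.17 (1.14 to 3.30), and Oasl2 had 24 and 43 UMIs with 1.90 (1.15 to 2.68). The macrophage markers differed by 0.23 on the log2 scale in the same nuclei. These nuclei were picked by low counts of those same markers, so the filter itself narrows that difference. The part of macrophage RNA in these ratios was not tested. Irf7 was again lower there, with 52 and 8 UMIs and a log2 ratio of -1.64 (-2.93 to -0.56). Isg15 (16 and 12 UMIs) and Ifit3 (23 and 17 UMIs) had log2 ratios of 0.64 (-0.57 to 1.82) and 0.62 (-0.37 to 1.59) there.

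**Figure D4:**
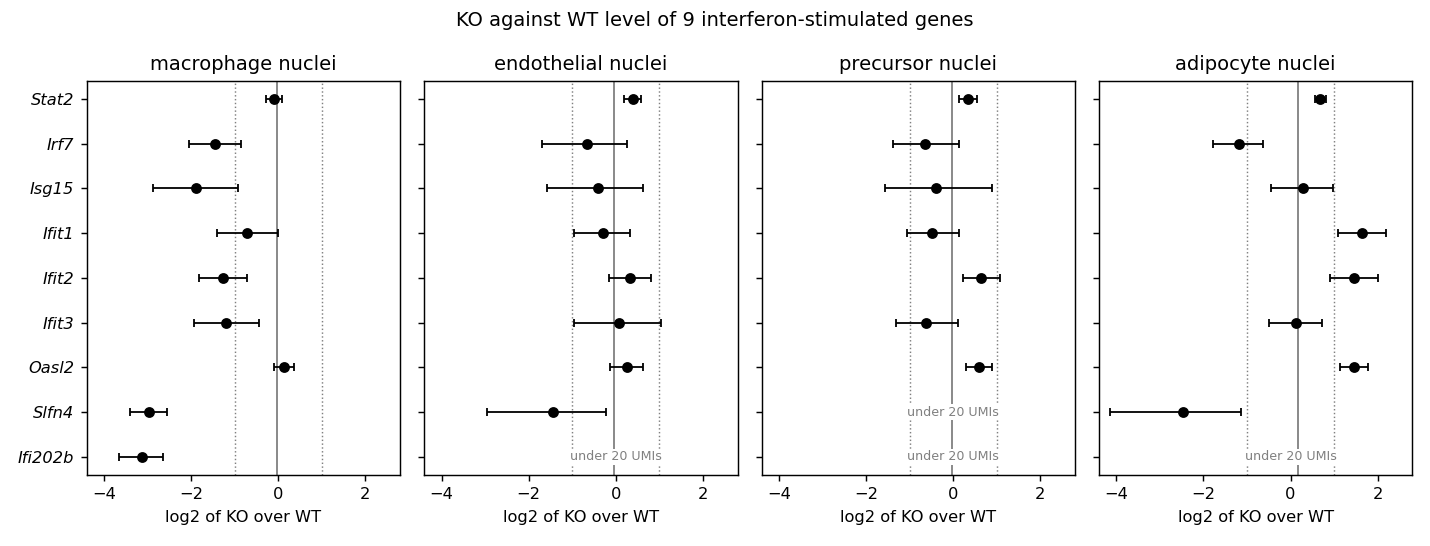
Log2 of the KO over the WT level of each gene (horizontal axis) in the 4 classes, with 95% exact binomial intervals for counting error; dotted lines mark 2-fold lower and higher, the grey line is the median over all genes of the class, and genes with under 20 UMIs in both libraries together are not drawn. Of the 9 genes, 6 lie left of the 2-fold line in macrophage nuclei, and Ifit1, Ifit2 and Oasl2 lie right of it in adipocyte nuclei.

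In endothelial nuclei the genes were close between the libraries. Only Slfn4 passed 2-fold, lower in KO, among 8 genes with at least 20 UMIs, and none was 2-fold higher; over all 14047 genes compared, 18.3% were 2-fold lower and 7.66% were 2-fold higher. Slfn4 had 48 UMIs in WT, 12 of them in 1 nucleus, and 6 in KO, or 5.38 CPM (3.96 to 7.13) against 1.97 CPM (0.724 to 4.30). In these nuclei the adipocyte markers summed to 8293 CPM in WT and 4851 CPM in KO and the macrophage markers to 432.8 and 778.5 CPM, and their part in the results was not tested. Stat2 was higher in KO by more than counting error, at 74.5 CPM (68.9 to 80.4) against 97.4 CPM (86.6 to 109.1), with a log2 ratio of 0.39 (0.18 to 0.59). Ifit1, at 10.9 and 8.88 CPM, Ifit2, at 14.3 and 18.1 CPM, and Oasl2, at 23.7 and 28.3 CPM, had ratios whose intervals held 0. Isg15 (4.37 and 3.29 CPM), Ifit3 (4.03 and 4.28 CPM) and Irf7 (6.27 and 3.95 CPM) had under 60 UMIs in each library and intervals that held 0. Ifi202b had 8 UMIs in WT and 0 in KO endothelial nuclei, where 3 UMIs would be 0.987 CPM, so a difference was not detectable at this depth.

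Precursor nuclei had no gene past 2-fold among the 7 with at least 20 UMIs, against 9.53% of 14703 genes that were 2-fold higher and 16.7% that were 2-fold lower. Adipocyte markers summed to 7326 CPM in WT and 2899 CPM in KO precursor nuclei and macrophage markers to 292.9 and 721.0 CPM, and their part in the results was not tested. The levels of 3 genes were higher in KO by more than counting error. Ifit2 had 58 and 305 UMIs, or 16.5 CPM (12.6 to 21.4) against 25.7 CPM (22.9 to 28.8), with a log2 ratio of 0.64 (0.23 to 1.07). Oasl2 was 30.8 CPM (25.3 to 37.2) in WT and 46.4 CPM (42.6 to 50.4) in KO, with a log2 ratio of 0.59 (0.29 to 0.90). Stat2 was 67.6 and 85.7 CPM, with a log2 ratio of 0.34 (0.14 to 0.55). Isg15, Ifit1, Ifit3 and Irf7 had log2 ratios between -0.64 and -0.40, and the interval of each held 0. Slfn4 (4 and 9 UMIs) and Ifi202b (4 and 4 UMIs) were near the floor.

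Summed over the 9 genes, macrophage nuclei were lower in KO, at 292.7 against 182.5 CPM (log2 ratio -0.68, interval -0.79 to -0.57), and adipocyte nuclei were higher, at 47.0 against 74.6 CPM (0.67, 0.56 to 0.77). Precursor nuclei were at 143.7 and 177.0 CPM (0.30, 0.16 to 0.44) and endothelial nuclei at 144.4 and 166.2 CPM (0.20, 0.05 to 0.35). Stat2 supplied 52.8% of the 6915 WT and 55.4% of the 9314 KO UMIs of the 9 genes over all nuclei. Without it the log2 ratio was -1.09 in macrophage, 0.63 in adipocyte, 0.26 in precursor and -0.02 in endothelial nuclei. Any of the 9 genes was detected in 51.7% (WT) and 43.2% (KO) of macrophage nuclei, and in 22.4% and 15.6% after each nucleus was thinned to 1000 UMIs. In adipocyte nuclei the shares were 25.6% and 30.2%, and 4.17% and 6.11% after thinning, which left out 38 and 47 shallower nuclei. For precursor nuclei they were 34.6% and 45.2%, and 11.8% and 15.6% thinned. The endothelial shares were 27.1% and 25.7%, and 12.0% and 14.4% thinned. Thinning left out 187 and 81 endothelial nuclei, and the intervals of the 2 libraries overlapped without thinning (25.4 to 28.8 and 23.2 to 28.4).

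Most of the 9 genes were lowest in adipocyte nuclei. In WT the adipocyte level was the lowest of the 4 classes for 8 of the 9 genes, all but Slfn4, whose precursor level (1.14 CPM) had an interval that overlapped that of adipocyte nuclei (1.36 CPM). Macrophage nuclei were highest in WT for 7 genes, of which Isg15 overlapped in interval with endothelial and Ifit3 with precursor nuclei. Ifit1 was highest in endothelial and Ifit2 in precursor nuclei, but the macrophage, endothelial and precursor intervals overlapped between neighbours for both. In KO macrophage nuclei were highest for 4 genes, Irf7, Ifi202b, Slfn4 and Oasl2, and the intervals of Irf7 overlapped with precursor nuclei. The 4 class levels of Oasl2 in KO were all apart, in the order macrophage, precursor, endothelial and adipocyte. In WT, Stat2 was 3.02-fold and Irf7 3.54-fold higher in the highest than in the lowest class. The lowest levels of Slfn4 and Ifi202b rested on 4 and 16 UMIs, and no such fold is given for them.

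Over the 8 class and library values, the pairs of genes whose log2 levels ran most nearly together were Stat2 with Oasl2 (Pearson r = 0.94, n = 8), Ifi202b with Slfn4 (0.93) and Ifit1 with Ifit2 (0.91), and the least alike were Ifit2 and Ifi202b (0.15). The 8 points share libraries and depth, and these values only describe them. Of 13858 other genes with at least 200 UMIs, those most like the mean profile of the 9 were Gm4793 (0.95), Il4ra (0.94), Slc31a2 (0.94), Zyx (0.94) and Cmpk2 (0.93). Il4ra encodes the interleukin-4 receptor chain, Slc31a2 a copper transporter, Zyx the adhesion protein zyxin, and Cmpk2 a nucleotide kinase known as interferon-induced. Il4ra was 73.7 CPM in WT and 38.6 CPM in KO macrophage nuclei, and was again lowest in adipocyte nuclei.

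Beyond the 9 genes, 120 other genes of the pathway, in 8 lists, were compared. In macrophage nuclei 96 of them had enough UMIs, of which 9 were 2-fold lower and 1 was 2-fold higher, 9.38% and 1.04% against the 18.4% and 7.45% of all genes given above. The median log2 ratio of these pathway genes was -0.04, against -1.28 for the 9 genes. Both the 9 genes and the lists were chosen with earlier results of these data known, so this contrast only describes them. In adipocyte nuclei 56 of 103 were 2-fold higher and 6 were 2-fold lower, 54.4% and 5.83% against 25.6% and 17% of all genes. In endothelial nuclei 11 of 94 were higher and 4 lower (11.7% and 4.26%, against 7.66% and 18.3% of all genes), and in precursor nuclei 8 of 95 were higher and 5 lower (8.42% and 5.26%, against 9.53% and 16.7%).

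Interferon transcripts themselves were nearly absent from macrophage, endothelial, precursor and adipocyte nuclei. Nuclei of other classes, such as lymphocyte and dendritic nuclei, were not in this count. The 12 ligand genes had 21 UMIs in WT and 11 in KO over the 4 classes together, most of them of Ifnk, and 8 of the 12 had none; Ifnb1 had 1 UMI in each library. The chains of the type I receptor, named here as the entry of the pathway, were at 80.8 and 84.0 CPM (Ifnar1) and 171.1 and 158.7 CPM (Ifnar2) in WT and KO macrophage nuclei, and the intervals of both ratios held 0. Among the 6 receptor genes, Ifngr2, a chain of the interferon gamma receptor, was 2-fold higher in KO in 3 classes, with 7.18 against 36.3 CPM in adipocyte, 16.3 against 37.3 CPM in precursor and 12.0 against 24.0 CPM in endothelial nuclei. Il10rb, which the lambda interferon receptor uses, was 12.5 and 30.0 CPM in adipocyte nuclei. Ifnlr1, the other chain of that receptor, was lower in KO endothelial nuclei with 30 and 2 UMIs.

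Irf9 encodes a partner of STAT2 and is named for that. It was 20.1 CPM in WT and 18.6 CPM in KO adipocyte nuclei, and 37.2 and 33.7 CPM in macrophage nuclei, and the intervals of both log2 ratios held 0. In adipocyte nuclei 8 of the 14 signalling genes were 2-fold higher and none was 2-fold lower. Usp18, which removes ISG15 from proteins and damps the receptor, was 4.78 CPM in WT and 19.1 CPM in KO adipocyte nuclei, and Irf8, a myeloid transcription factor, was 2.26 and 15.1 CPM. Irf3, the factor that nucleic acid sensors activate, was 2-fold lower in KO macrophage nuclei, at 51.9 and 23.3 CPM, and in KO endothelial nuclei, at 53.5 and 24.7 CPM. In adipocyte nuclei it was 61.6 and 31.2 CPM and in precursor nuclei 45.9 and 26.3 CPM, lower in KO but short of 2-fold. Socs3, a feedback inhibitor of cytokine signals, was also lower in KO, with 21 and 8 UMIs in macrophage and 25 and 23 UMIs in precursor nuclei (5.79 against 0.804 CPM and 7.13 against 1.94 CPM).

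Of 13 nucleic acid sensing genes with enough UMIs in adipocyte nuclei, 9 were 2-fold higher in KO and none was lower. Cgas, the DNA sensor, was 1.02 CPM in WT and 5.21 CPM in KO, Ikbke, a kinase upstream of IRF3, was 2.74 and 12.2 CPM, and Tlr7, an endosomal RNA sensor of myeloid cells, was 1.81 and 14.0 CPM. In macrophage nuclei 1 of 13 was 2-fold lower, the nucleic acid sensor Zbp1, with 58 and 60 UMIs and a log2 ratio of -1.41. Mavs, the adaptor of the cytosolic RNA sensors, was 2-fold lower in KO endothelial nuclei, at 29.2 and 11.2 CPM. It was also lower in KO, but short of 2-fold, in the other classes. Its levels were 59.1 and 30.3 CPM in adipocyte, 44.4 and 27.6 CPM in macrophage and 31.1 and 16.6 CPM in precursor nuclei.

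The other induced antiviral genes were higher in KO adipocyte nuclei for 22 of 36 compared, with a median log2 ratio of 1.30. Epsti1 had the largest UMI count of those named, with 209 and 936 UMIs (5.91 and 46.0 CPM), and Ifit1bl2 and Ifit1bl1, neighbours of the Ifit genes, had 8 and 51 and 4 and 18 UMIs. In macrophage nuclei 1 of 31 was past 2-fold, the helicase gene Helz2, lower at 14.9 and 5.33 CPM. In endothelial nuclei Ifi27l2a was lower in KO (50.1 and 14.1 CPM) and Epsti1 and Oas2 were higher (17.8 and 53.6 CPM, and 20.2 and 45.1 CPM). In precursor nuclei Ifi27l2a and Ly6e were lower in KO, at 36.8 and 14.8 CPM and 37.4 and 17.5 CPM, and Epsti1 was higher, at 18.5 and 53.0 CPM. In endothelial nuclei Epsti1 stood at 4.23% (WT) and 9.08% (KO) of its macrophage level, against 5.88% and 8.07% for the macrophage marker list. Its precursor shares were 4.40% and 8.98%, against 3.98% and 7.48%. Oas2 stood at 11.9% and 39.3% in endothelial nuclei. The part of macrophage RNA in these counts was not tested.

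Most relatives of Ifi202b and Slfn4 were within 2-fold in macrophage nuclei. Of 12 other Ifi200 genes, 2 were 2-fold lower, Ifi205 at 18.5 and 8.44 CPM and Ifi214 with 14 and 19 UMIs, and of 6 other Schlafen genes 1 was, Slfn1 at 19.6 and 8.84 CPM. In adipocyte nuclei, 8 of 11 Ifi200 genes and 4 of 6 Schlafen genes were 2-fold higher in KO, among them Ifi207 at 15.5 and 58.2 CPM, Aim2 at 1.84 and 12.3 CPM, and Slfn8 at 2.71 and 11.7 CPM. Ifi207 and Slfn8 stood at 13.8% and 11.9% of their macrophage level in KO adipocyte nuclei, within the 3.16% to 16.9% spanned by the macrophage markers, and so did Epsti1 at 7.79% and Tlr7 at 8.72%. Usp18, at 96.1% of its macrophage level, stood above that span. The part of macrophage RNA in the adipocyte counts of these lists was not tested.

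Genes induced mainly by interferon gamma were counted apart. In adipocyte nuclei 6 of 17 were 2-fold lower and 3 were 2-fold higher in KO. The chemokine genes Cxcl9 and Cxcl10 were lower, with 75 and 5 and 149 and 37 UMIs, while Nlrc5 and Ciita, the activators of MHC class I and class II genes, were higher, at 52.2 and 216.0 CPM and 4.75 and 27.0 CPM. In KO adipocyte nuclei Ciita stood at 9.97% of its macrophage level, within the 3.16% to 16.9% spanned by the macrophage markers, and Nlrc5 at 220%. The part of macrophage RNA in these counts was not tested. Ciita was also higher in KO endothelial (4.03 and 30.3 CPM) and precursor nuclei (4.85 and 32.5 CPM). Its endothelial levels were 6.47% (WT) and 11.2% (KO) of its macrophage level, against 5.88% and 8.07% for the macrophage marker list. Its precursor levels were 7.77% and 12.0%, against 3.98% and 7.48%. The part of macrophage RNA in the endothelial and precursor counts was not tested either. In KO macrophage nuclei Ciita was higher too, at 62.4 and 271.2 CPM, the only one of the 96 pathway genes compared there to pass 2-fold upward. Gbp4 and Gbp6, interferon-induced GTPases, were lower in KO macrophage nuclei, at 5.79 and 1.51 CPM and 11.6 and 4.02 CPM.

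**Figure D5:**
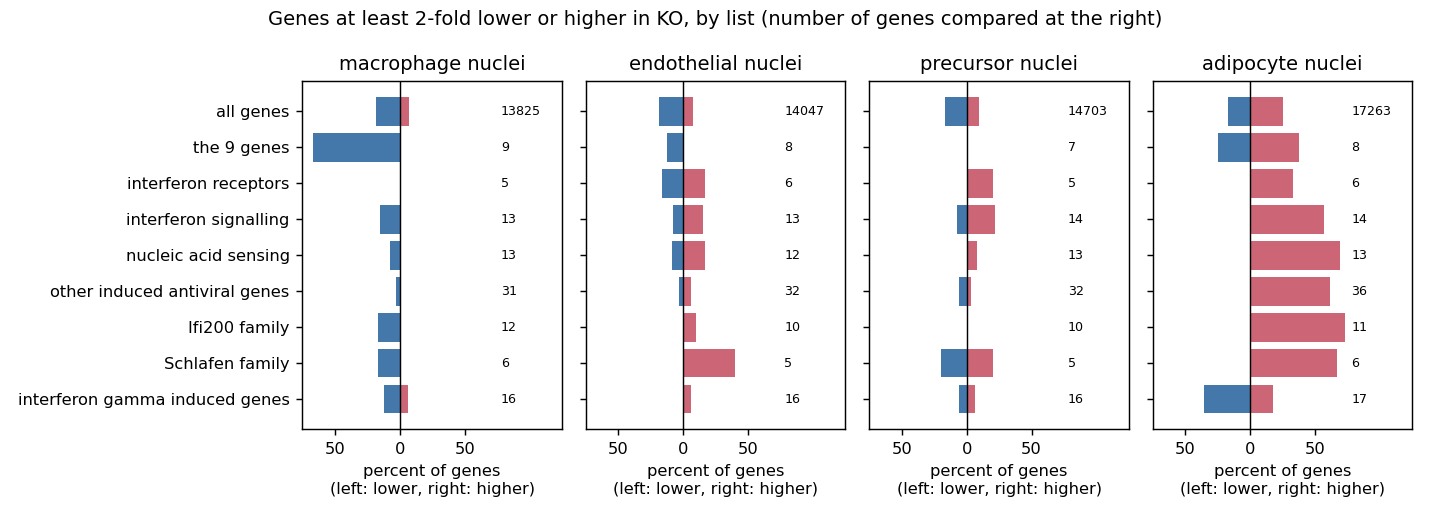
Percent of the genes of each list that were at least 2-fold lower in KO (bars to the left) or higher (bars to the right) in the 4 classes, beside the same over all genes and over the 9 genes; the number of genes compared stands at the right of each row, and the interferon ligand list, which had no gene with enough UMIs, is not drawn. In adipocyte nuclei 54.4% of the genes of all lists together are higher in KO, against 25.6% of all genes.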

How the data were processed

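Per the labels and the study's methods, nuclei were isolated from interscapular BAT and profiled by droplet snRNA-seq, 1 library per genotype. The authors deposited unnormalized UMI counts per gene and barcode. The submitters' processing notes name Cell Ranger 5.0.0 and Seurat 3.1.1, and the methods name STAR and GRCm38. Whether intronic reads were counted is not given in the sources used here.

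From the 12846 WT and 11495 KO barcodes, nuclei with at least 200 genes, at most 10% mitochondrially encoded UMIs and log UMI and gene numbers within 3 scaled median absolute deviations of the median were kept, which left 12771 and 11378 (medians of 3439.5 and 4363 UMIs per deposited barcode). No doublet caller was run. Instead, nuclei with markers of a second class were left out as an alternative. A nucleus was called for the class with the highest scaled marker sum, given at least 3 UMIs from at least 2 markers and 2 times the next class. The calls were rebuilt from marker lists and may differ from those of the study.

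UMIs were summed per class and library. Levels are CPM with exact Poisson intervals, shares have exact Clopper-Pearson intervals, and ratios have exact binomial intervals, all at 95% and for counting error only. Ratios were counted as past 2-fold for genes with at least 20 UMIs over both libraries. No test was possible with 1 library per genotype. For shares at equal depth, nuclei were thinned to 1000 UMIs. Named pathway genes were the 3 furthest past 2-fold in each list, direction and class. Like genes were those with the highest Pearson correlation of log2(CPM + 1). The members and lists were chosen with earlier results of these data known. Python 3.11.15, numpy 2.4.6, scipy 1.17.1, pandas 2.3.3 and matplotlib 3.10.9 were used, and the ratio step was tested on simulated data.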

Additional observations from a re-analysis of the deposited data

Results flagged for a closer look

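The KO to WT ratio of Ifit1 had opposite directions in adipocyte and macrophage nuclei. Their log2 ratios differed by 2.35, and the macrophage interval ended close to 0. Of the 30 WT macrophage UMIs of Ifit1, 9 lay in 1 nucleus, and with the nucleus of most UMIs left out of each library the macrophage log2 ratio was -0.30. For Ifit2, the log2 ratio in macrophage nuclei was below that in adipocyte nuclei by a difference of 2.73, and below that in precursor nuclei by a difference of 1.92. These differences were not tested, since each genotype was 1 library, and 27 of the 54 WT macrophage UMIs of Ifit2 came from a single nucleus.

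Nuclei that no class claimed, which no comparison used, also carried Oasl2. It had 266 UMIs in 4363 WT and 765 UMIs in 3147 KO uncalled nuclei, or 11.3 and 32.6 CPM, with a log2 ratio of 1.53 (1.32 to 1.73). The median depth of these nuclei was 1367 UMIs in WT and 4138 UMIs in KO, and the part of depth was not tested.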

How the results depend on the processing

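The log2 ratio of the summed 9 genes in macrophage nuclei was -0.82 with a margin of 4 between classes, -0.52 with none, -0.86 with 500 to 5000 genes per nucleus, -1.19 with the lowest class level subtracted, -1.09 without Stat2, and -2.29 without nuclei marked for a second class, which left 19 WT nuclei. In endothelial nuclei it was 0.047 with a margin of 4, and turned to -0.084 without second-class nuclei, -0.090 with subtraction and -0.023 without Stat2. In precursor nuclei it was 0.44 with a margin of 4, 0.49 as a mean over nuclei, 0.59 thinned and 0.081 with subtraction, and turned to -0.72 without second-class nuclei (8 WT nuclei left). In adipocyte nuclei it was 0.54 with no filter, 0.50 centred on the class median and 0.79 thinned, and turned to -2.14 with subtraction, which removes most of the level in the lowest class by construction. The alternative without Stat2 was chosen after seeing the data, and the cause of the other shifts was not tested.

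Of the 9 genes, the number past 2-fold in macrophage nuclei was 3 without second-class nuclei and 2 thinned. In endothelial nuclei it was 2 with no margin and 0 without second-class nuclei or thinned. In precursor nuclei it was 1 with no margin, without second-class nuclei, with no minimum of UMIs or as a mean over nuclei, and 2 with subtraction. In adipocyte nuclei it was 2 thinned and 1 with subtraction. Except with no minimum of UMIs, genes under 20 UMIs were not counted, so fewer than 9 genes were compared under some settings. After thinning, for example, Isg15 had 4 UMIs in WT and 0 in KO macrophage nuclei. A lower count can therefore reflect genes that were not compared. Other pathway genes past 2-fold numbered 16 with a margin of 4, 40 without second-class nuclei and 23 with subtraction in macrophage nuclei, 1 without second-class nuclei and 29 with subtraction in endothelial nuclei, and 37 and 34 with subtraction in precursor and adipocyte nuclei. These counts join both directions. Those without second-class nuclei rest on 19 WT and 546 KO macrophage nuclei and on 25 and 55 endothelial nuclei. The share of all genes past 2-fold was not computed under the alternative settings, so the counts do not set these genes apart. Shares of nuclei with any of the 9 genes, thinned, were 22.4% and 15.6% (macrophage, WT and KO), 12.0% and 14.4% (endothelial), 11.8% and 15.6% (precursor) and 4.17% and 6.11% (adipocyte). The WT macrophage share was 57.2% with a margin of 4. No paired analysis was possible because each genotype was 1 library, and depth leaves genes with under 20 UMIs without a usable ratio.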

Other observations

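In nuclei called dendritic, 39 in WT and 444 in KO, Irf7 had 6 and 8 UMIs, or 30.1 CPM and 2.86 CPM. Stat2 had 27 and 211 UMIs there, or 135.3 and 75.4 CPM, and Oasl2 had 10 and 79 UMIs, or 50.1 and 28.2 CPM. Slfn4 had 3 and 9 UMIs. In Schwann nuclei, 165 and 61, Ifit2 had 15 and 13 UMIs, with a log2 ratio of 1.43 (0.24 to 2.61). These classes are small, and no gene was compared further in them.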
